A study of Homo sapiens with 10 samples.

Results

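The HOX genes encode the homeodomain transcription factors that give positions along the body axis their identity, and here they were described as one set of 39 protein-coding genes of the 20033 protein-coding genes placed. They were chosen by symbol, HOXA, HOXB, HOXC or HOXD followed by a number. The set held 11 HOXA genes on chromosome 7, 10 HOXB genes on chromosome 17, 9 HOXC genes on chromosome 12 and 9 HOXD genes on chromosome 2. No measured value entered this rule, although it was set with earlier results of these data known.

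The data were chromatin immunoprecipitation with sequencing (ChIP-seq) peak lists from 22RV1, an established human prostate cancer cell line grown in medium with 10% serum. Per the labels, all cells were transfected and then fixed with 1% formaldehyde for 10 minutes. There were 3 pairs of groups with 1 library per group. An siRNA against RB1, which encodes the retinoblastoma tumour suppressor RB, was set against a control siRNA. A plasmid for HA-RB(245-255), HA-tagged RB residues 245 to 255, was set against the empty vector EV(245-255). A plasmid for HA-RBN, whose insert carries an HA tag and is named RBN in the labels, was set against the empty vector EV(RBN). The labels do not name the antibody, and the series title concerns TRIM24, a chromatin reader and co-regulator of transcription. Mock immunoprecipitations with IgG are labelled for the siRNA and 245-255 pairs only, and the 4 IgG libraries have no peak list analysed here. The genotype field of HA-RB(245-255) reads as a control, and the sample's title was followed instead. With 1 library per group no difference between conditions has a replicate check, so no p-value is given. The 95% intervals below cover counting error only. They treat genes and summits as separate, although neighbouring genes can share a summit or an interval.

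In vertebrates the HOX genes lie in 4 clusters, and their order on the chromosome follows the order of the body regions where they act. Genes with low numbers pattern anterior regions, and those with high numbers pattern posterior regions such as the lower spine, the limb ends and the urogenital tract. Polycomb proteins hold the clusters silent, and trithorax proteins such as KMT2A keep them active. HOXB13 is the posterior member that prostate epithelium keeps expressing in the adult, and it is a lineage factor of prostate cancer. HOX proteins bind DNA together with cofactors of the TALE class, among them PBX and MEIS proteins.

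The finding at sequence level was where summits did and did not fall in HOX promoters. RefSeq promoter sequences (GRCh38.p14, 250 bases before to 50 after each annotated start) were matched for 20 of the 39 genes, in 27 promoters. HOXB13 and HOXC13 were not matched. A summit is the position of the highest signal in a listed peak. None of the 27 promoters held summits in 3 or more libraries. The 2 that held summits in 2 libraries, those of HOXA4 and HOXA13, are printed with one HOXD promoter that held none, each 5′ to 3′ on the gene's strand. They were chosen after the values were seen. The capitals mark the 11 bases centred on each listed summit.
HOXA13 promoter, chr7:27200042-27200341, minus strand: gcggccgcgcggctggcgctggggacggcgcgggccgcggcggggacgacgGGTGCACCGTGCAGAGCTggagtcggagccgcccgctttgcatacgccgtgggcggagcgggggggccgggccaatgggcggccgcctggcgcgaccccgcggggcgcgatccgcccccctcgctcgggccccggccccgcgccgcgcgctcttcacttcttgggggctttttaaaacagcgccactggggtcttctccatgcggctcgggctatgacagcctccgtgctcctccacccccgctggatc
HOXA4 promoter, chr7:27130708-27131007, minus strand: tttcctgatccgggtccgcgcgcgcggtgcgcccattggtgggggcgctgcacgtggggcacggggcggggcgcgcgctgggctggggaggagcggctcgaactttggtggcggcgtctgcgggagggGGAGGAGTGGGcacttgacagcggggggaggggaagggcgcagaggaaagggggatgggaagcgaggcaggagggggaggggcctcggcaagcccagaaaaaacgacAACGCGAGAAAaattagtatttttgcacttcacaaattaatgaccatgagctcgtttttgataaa
HOXD1 promoter, chr2:176188418-176188717, plus strand: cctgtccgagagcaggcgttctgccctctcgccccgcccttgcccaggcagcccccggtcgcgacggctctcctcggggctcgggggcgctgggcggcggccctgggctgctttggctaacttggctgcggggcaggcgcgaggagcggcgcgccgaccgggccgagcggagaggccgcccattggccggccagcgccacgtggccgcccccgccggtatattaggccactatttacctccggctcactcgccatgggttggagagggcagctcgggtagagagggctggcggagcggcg
In the HOXA13 promoter the RB1 siRNA summit fell on base 57 and the EV(245-255) summit on base 64, so their marks run together. In the HOXA4 promoter the HA-RBN summit fell on base 134 and the EV(RBN) summit on base 241. HOXA13, a factor of distal limb and urogenital development, had the promoter richest in CG dinucleotides of the 27, with 44 and a GC content of 76.3%. The HOXA4 promoter held 27 CG dinucleotides. The HOXD1 promoter held 36 with a GC content of 74.3%, and no library listed a summit in it.

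HOXD promoters were of like composition to the rest. The 8 HOXD promoters had a median of 24.5 CG dinucleotides, the 16 HOXA promoters 21.5, and all 22198 promoters 21. None of the 8 HOXD promoters held a summit in any of the 6 libraries. Nor did the 1 HOXB promoter or most of the HOXA promoters, so an empty promoter was not particular to HOXD. Summits fell only in promoters of HOXA3, HOXA4, HOXA13, HOXC4 and HOXC5. Among the 27 HOX promoters, 1 held a summit in the RB1 siRNA library and 0 did in the control siRNA library. The count was 0 with HA-RB(245-255) and 1 with EV(245-255), and 2 with HA-RBN and 3 with EV(RBN). Of all promoters, 13.2% to 23.1% held one, depending on the library. Motifs were searched as exact letters on both strands. CAATAAA, a sequence that posterior HOX proteins bind, was in 4 of the 27 promoters (14.8%, of HOXA3, HOXC4 and HOXC5, the last pair sharing 1 promoter sequence) and in 2.90% of all promoters. The TATA box letters TATAAA were in 18.5% of the HOX promoters, among them those of HOXA9, HOXA10 and HOXD13, against 9.47% of all. The E2F letters TTTCGCGC were in 1 HOX promoter, of HOXA3. TTTCCCGC, TTTGGCGC, the ETS letters CCGGAAG, the nuclear receptor letters AGGTCA, and the NRF1, DR5 and DR2 motifs were in none. AGGTCA was in 11.9% and CCGGAAG in 12.8% of all promoters.

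The lists differ in kind, and this bears on every value below. In the siRNA and 245-255 pairs the listed intervals were so wide that they covered 92.9% to 95.7% of the chromosomes, so lying in an interval says little and only the summit was used. In the RBN pair the intervals had a median length of 522 bp with HA-RBN and 450 bp with EV(RBN). Fragment numbers under each summit were recovered from the deposited fold enrichment and p-value. The library background, the most common local background in a list, was 0.539 fragments with RB1 siRNA and 0.413 with control siRNA. It was 0.250 with HA-RB(245-255) and 0.187 with EV(245-255), and 0.634 with HA-RBN and 0.367 with EV(RBN). A gene was counted where a summit fell in it or within 1 kb of its ends.

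HOX genes held a listed summit less often than protein-coding genes did as a whole, in each of the 6 libraries. The count was 7 of 39 HOX genes (17.9%, 95% interval 7.54-33.5%) with RB1 siRNA, where 51.2% of all genes had one, and 5 (12.8%) with control siRNA, where 42.3% of all genes had one. It was 12 (30.8%) with HA-RB(245-255), against 71.3% of all genes, and 15 (38.5%) with EV(245-255), against 71.0%. It was 30 (76.9%, 60.7-88.9%) with HA-RBN, against 91.8%, and 23 (59.0%, 42.1-74.4%) with EV(RBN), against 85.2%. Summits of at least 10 fragments were at 6 HOX genes (15.4%) with RB1 siRNA, against 37.9% of all genes, and at 4 (10.3%) with control siRNA, against 31.3%. They were at 5 (12.8%) with HA-RB(245-255), against 35.0%, and at 6 (15.4%) with EV(245-255), against 35.2%. They were at 16 (41.0%) with HA-RBN, against 49.2%, and at 3 (7.69%) with EV(RBN), against 16.5%. In the siRNA and 245-255 pairs each wide interval lists 1 summit and can cover many neighbouring HOX genes. With RB1 siRNA 31 of the 39 HOX genes lay in an interval without a summit in their window, against 9630 of all 20033 genes. It was 33 with control siRNA, against 11366, 25 with HA-RB(245-255), against 5671, and 23 with EV(245-255), against 5734. The part of this packing in the shares was not tested.

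HOX genes are also short, which lowers a count of genes with a summit in their window. Their median length was 3785 bp, against 24130 bp for all protein-coding genes. Counting only summits within 1 kb of a gene end, a measure added after the values were seen, gives every gene a window of like size. By it the HOX count was 5 (12.8%) with RB1 siRNA, against 33.5% of all genes, and 2 (5.13%) with control siRNA, against 28.1%. It was 5 (12.8%) with HA-RB(245-255), against 45.5%, and 11 (28.2%) with EV(245-255), against 45.4%. It was 21 (53.8%, 37.2-69.9%) with HA-RBN, against 73.4%, and 17 (43.6%, 27.8-60.4%) with EV(RBN), against 60.2%. The HOX share was the lower one in all 6 libraries, although with EV(RBN) the counting interval took in the share of all genes. This measure does not take out the packing of HOX genes in the wide intervals of the siRNA and 245-255 pairs.

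Per length of window the order turned round. The merged HOX windows span 329 kb and held 16.4 summits per 100 kb with HA-RBN (12.3-21.4), against 9.64 for all gene windows, and 13.7 with EV(RBN) (9.97-18.3), against 6.41. They held 5.47 with EV(245-255) (3.24-8.64), against 3.0, and 3.34 with HA-RB(245-255) (1.67-5.98), against 3.48. With RB1 siRNA the density was 1.82 (0.669-3.97), against 1.3, and with control siRNA 1.22 (0.331-3.11), against 0.857. The HOX density was therefore the higher one in 5 of 6 libraries, and its interval stood clear of the value for all genes in EV(245-255), HA-RBN and EV(RBN). Within 1 kb of gene ends alone the HOX density was the lower one in all 6, for example 18.6 with HA-RBN, against 22.7, and 1.38 with control siRNA, against 6.66. The median summit was taller in HOX windows than in all gene windows in each library. It had 18 fragments with RB1 siRNA, against 7, and 15.5 with control siRNA, against 10. It had 6 fragments with HA-RBN and 4 with EV(RBN), against 3 in each, and 5 with HA-RB(245-255) and 5.5 with EV(245-255), again against 3. At gene ends HOX summits less often had at least 10 fragments, except with control siRNA (2 of 2, against 4042 of 4851). With RB1 siRNA 4 of 5 did, against 4920 of 5933. With HA-RB(245-255) 1 of 6 did, against 4397 of 8461, and with EV(245-255) 3 of 12, against 4427 of 8445. With HA-RBN 10 of 27 did, against 6915 of 16495, and with EV(RBN) 1 of 19, against 2003 of 13067.

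**Figure D1:**
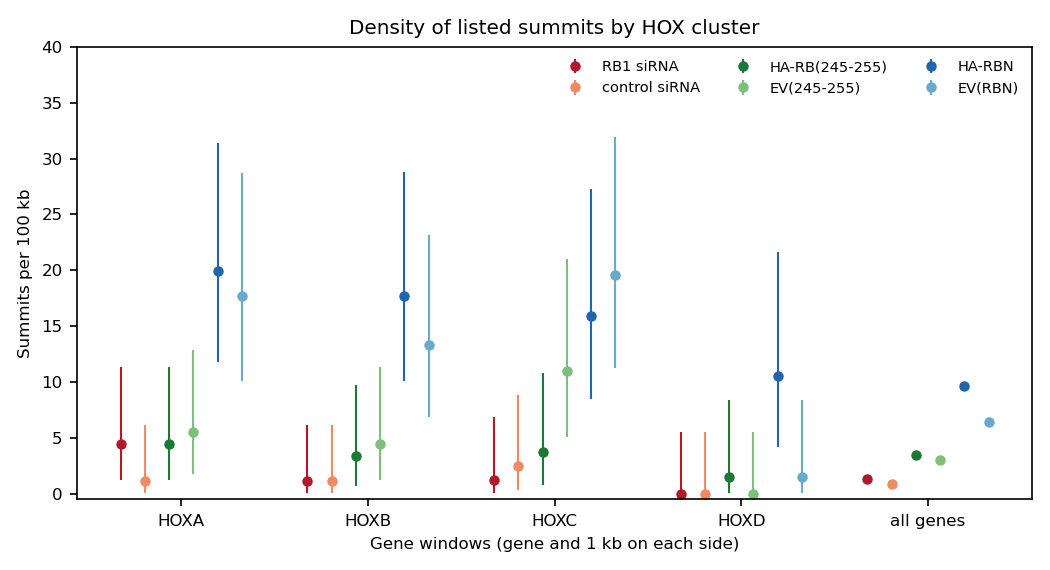
Summits per 100 kb of merged gene windows in each HOX cluster and in all protein-coding genes, by library. Points are densities and bars exact Poisson 95% intervals over 1 library each. HOXD lies lowest of the 4 clusters in both RBN libraries, at 10.5 with HA-RBN and 1.5 with EV(RBN).

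By gene windows HOXD had the fewest genes with a summit of the 4 clusters in each library. Its 9 genes pattern the limbs, the genitalia and the posterior trunk. Of them 0 had a summit with RB1 siRNA and 0 with control siRNA. Taken as separate genes, 0 of 9 allows a share of up to 33.6%. They were not separate, since in both libraries all 9 lay at least in part in an interval with its summit outside their windows. One HOXD gene had a summit with HA-RB(245-255) and 0 with EV(245-255), and 5 with HA-RBN and 1 with EV(RBN). HOXA had 5 of 11 genes with RB1 siRNA and 1 with control siRNA, 4 with HA-RB(245-255) and 5 with EV(245-255), and 8 with HA-RBN and 8 with EV(RBN). HOXB had 1 of 10 with RB1 siRNA and 1 with control siRNA, 3 with HA-RB(245-255) and 4 with EV(245-255), and 10 with HA-RBN and 7 with EV(RBN). HOXC had 1 of 9 with RB1 siRNA and 3 with control siRNA, 4 with HA-RB(245-255) and 6 with EV(245-255), and 7 with HA-RBN and 7 with EV(RBN). The density in EV(RBN) was 1.5 summits per 100 kb in HOXD (0.0379-8.34), against 17.7 in HOXA, 13.3 in HOXB and 19.6 in HOXC. In HA-RBN the HOXD density was 10.5 (4.21-21.6), and its interval overlapped those of HOXA at 19.9 (11.8-31.4), HOXB at 17.7 and HOXC at 15.9.

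Within 1 kb of gene ends HOXD was not the emptiest in every library. With HA-RBN 4 of 9 HOXD genes (44.4%) had a summit there, as many as in HOXC, and the density was 18.3 summits per 100 kb in HOXD and 15.6 in HOXC. With HA-RB(245-255) it was 3.05 in HOXD and 2.61 in HOXB. With RB1 siRNA, EV(245-255) and EV(RBN) no HOXD gene end had a summit and each other cluster had at least 1. With control siRNA HOXA and HOXD had 0.

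The HOXD summits were small. HOXD9 had the tallest, of 3 fragments with HA-RB(245-255) and 4 with HA-RBN. HOXD8, HOXD11 and HOXD13 had 3 fragments each with HA-RBN, HOXD10 had 2 with HA-RBN, and HOXD12 had 2 with EV(RBN). HOXD1, HOXD3 and HOXD4 had no summit in any library. The tallest summits of the other clusters were 26 fragments in HOXA, 19 in HOXB and 36 in HOXC with HA-RBN, and 10, 13 and 18 in the same order with EV(RBN). The caller puts a summit at the highest stack of its interval, so an interval with its summit elsewhere caps the stack at a gene inside it. By this cap no HOXD gene exceeded 18 fragments with RB1 siRNA, 7 with control siRNA, 4 with HA-RB(245-255) or 13 with EV(245-255) where it lay in an interval.

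A HOXD site stood just outside the gene window. It lay 1919 bp above the upper end of HOXD13, the limb and genital patterning gene, at chr2:176097792-176097878 (hg38). It had 9 fragments with RB1 siRNA, 7 with HA-RBN and 2 with EV(RBN), and no summit in the other 3 libraries. With a window of 2 kb it would have been counted.

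**Figure D2:**
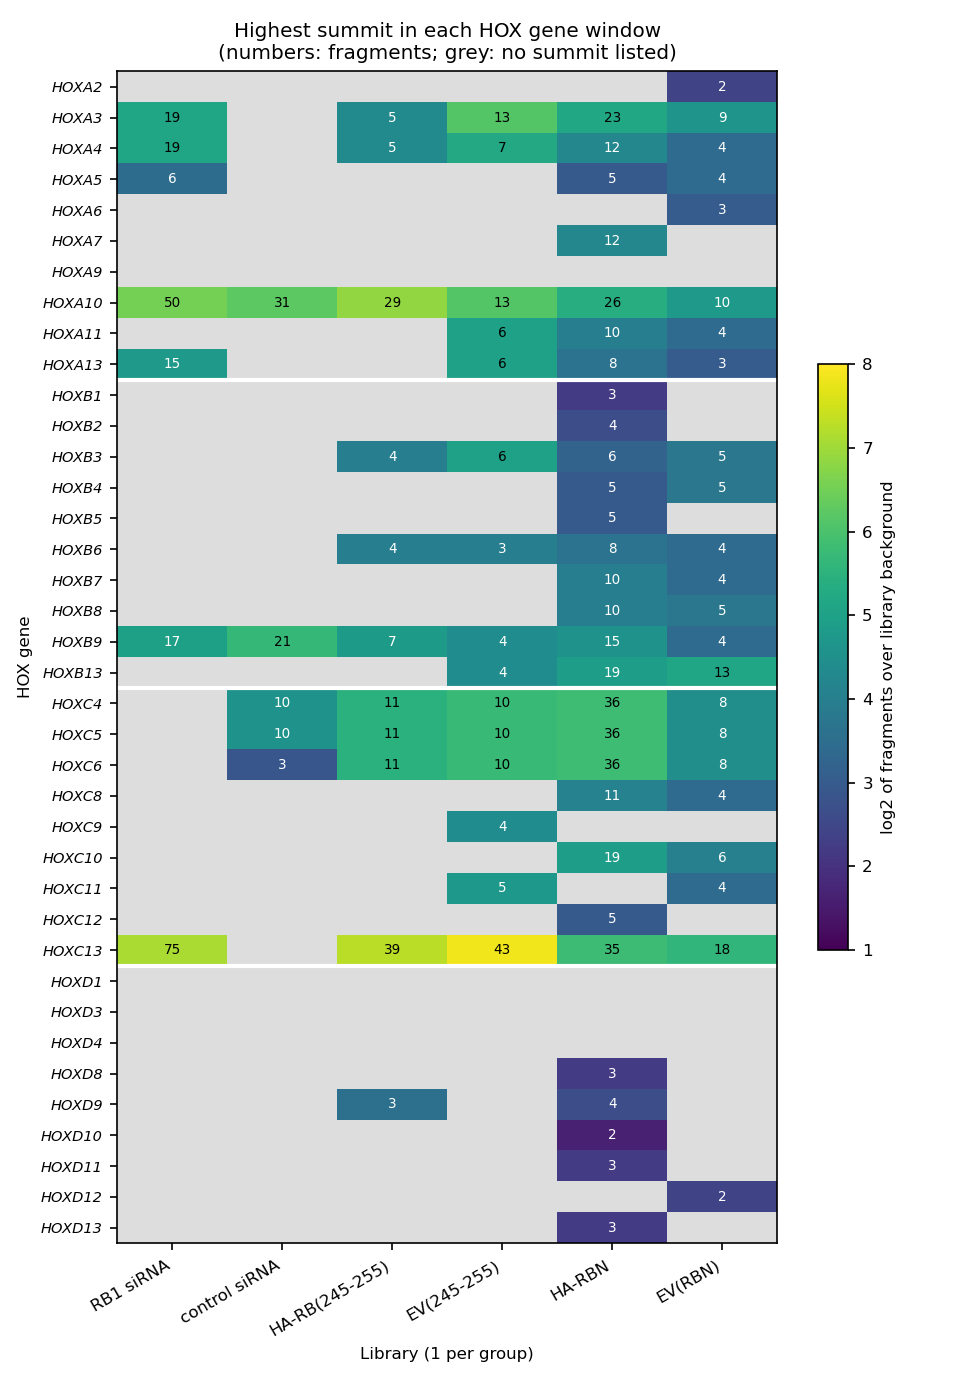
Tallest summit in the window of each HOX gene, with genes in rows by cluster and the 6 libraries in columns. One HOXA gene is not drawn. Numbers are fragments, colour is log2 of fragments over the library background, and grey marks no listed summit. HOXC13 reaches 75 fragments and HOXA10 50, both with RB1 siRNA, and the HOXD rows hold none above 4.

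A summit in 4 or more libraries was found at 11 of the 39 HOX genes (28.2%), where 67.2% of all protein-coding genes, most of them longer, had one. HOXA10 and HOXB9 had a summit in all 6 libraries. HOXA3, HOXA4, HOXC4, HOXC5, HOXC6 and HOXC13 had one in 5, and HOXA13, HOXB3 and HOXB6 in 4. HOXA5, HOXA11 and HOXB13 had one in 3, 8 genes in 2 and 13 in 1. HOXA9, HOXD1, HOXD3 and HOXD4 had none. Linking summits at most 250 bp apart gave 106 sites in HOX windows, of which 9 (8.49%) were listed in 3 or more libraries and 2 (1.89%) in 5. Of the 253277 sites in all gene windows, 5.54% were listed in 3 or more and 1.85% in 5 or more. By these 2 cut-offs the recurrent share of sites was not smaller in HOX windows than in all gene windows. In all 6 libraries 0 HOX sites were listed, and 2050 sites of all gene windows. A HOX site could take in summits just outside a window, which a site of all gene windows could not. No comparison of sites at gene ends alone was made.

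HOXC13, a posterior member known for its part in hair and nail formation, had the tallest summit of any HOX gene in 4 of the 6 libraries. It had 75 fragments with RB1 siRNA, 39 with HA-RB(245-255) and 43 with EV(245-255), and 35 with HA-RBN and 18 with EV(RBN). The 5 summits fell within 66 bp of each other, at chr12:53938631-53938697, 134 to 200 bp outside the lower end of the gene. They stood 139, 156, 229, 55.2 and 49.1 times above their libraries' background in the same order. The authors' fold enrichment at them was far lower, at 2.3, 2.49, 2.84, 7.4 and 6.34. It is taken to the local background, with 1 added to the stack and to that background. One fragment counts in it as 0.0176 with RB1 siRNA, 0.0512 with HA-RB(245-255) and 0.0434 with EV(245-255), so there the added 1 keeps it low. The −log10 q of these summits was at most 0.264 with RB1 siRNA, HA-RB(245-255) and EV(245-255), and 18.4 with HA-RBN and 8.34 with EV(RBN). The control siRNA list had no summit at HOXC13. There the gene lay inside an interval whose summit, of 104 fragments, was at 53501355, so a stack as tall as that of the RB1 siRNA library could lie under it unseen. The local background at the HA-RB(245-255) summit was 15.8 times the library background, and it was 1.00 times with EV(245-255). Its part in the values was not tested.

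HOXA10, a factor of uterine, limb and blood development, carried the other site listed in 5 libraries, at chr7:27175153-27175499 inside the annotated gene. It had 50 fragments with RB1 siRNA and 31 with control siRNA, 29 with HA-RB(245-255), and 26 with HA-RBN and 10 with EV(RBN). The EV(245-255) list had its HOXA10 summit elsewhere, 13 fragments at 27169676 beside the lower end. The RB1 siRNA, control siRNA, HA-RB(245-255) and HA-RBN summits lay 833 to 1080 bp upstream of the nearest annotated HOXA10 start, outside the promoter sequence. HOXA10 was thus the HOX gene with the most even listing, with a summit of 10 or more fragments in each library.

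HOXB9, a thoracic patterning gene, had summits of 17 fragments with RB1 siRNA and 21 with control siRNA, 7 with HA-RB(245-255) and 4 with EV(245-255), and 15 with HA-RBN and 4 with EV(RBN). Those of RB1 siRNA, control siRNA, HA-RB(245-255) and HA-RBN fell within 245 bp, at chr17:48625862-48626107 by the upper end. The EV(245-255) and EV(RBN) summits were at 48620643 and 48625338.

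HOXB13 (chr17:48724763-48728750) did not rank among the recurrent genes. It had 4 fragments with EV(245-255), at 48728553, 19 with HA-RBN, at 48727325, and 13 with EV(RBN), at 48727468. EV(RBN) had a further summit in the window at 48725028. The EV(245-255) summit carried the authors' fold enrichment of 1.15, and the HA-RBN and EV(RBN) summits 3.03 and 3.99. With control siRNA and HA-RB(245-255) no interval reached the gene. With RB1 siRNA it lay inside an interval with its summit of 21 fragments at 48722630, outside the window. That summit belonged to a site at chr17:48722505-48722684, 2123 bp from the lower end of HOXB13 and in the window of PRAC1, a small prostate-expressed gene beside it. The site had 21 fragments with RB1 siRNA, 11 with EV(245-255), and 27 with HA-RBN and 11 with EV(RBN). It was listed in 4 libraries, 1 more than HOXB13 itself.

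A pair of stretches of HOXA, near HOXA4 and near the upper end of HOXA3, also recurred. HOXA4, an anterior member, had 19 fragments with RB1 siRNA, 5 with HA-RB(245-255) and 7 with EV(245-255), and 12 with HA-RBN and 4 with EV(RBN). All lay between 274 bp upstream and 308 bp downstream of its annotated start. The HOXA4 window lies inside the annotated HOXA3 gene, so both count these summits. HOXA3, which acts in the thymus and parathyroid, had its own site at 27152133-27152177, with 13 fragments with EV(245-255), 23 with HA-RBN and 9 with EV(RBN). HOXA13 had 15 fragments with RB1 siRNA, 6 with EV(245-255), and 8 with HA-RBN and 3 with EV(RBN). These summits lay 187 to 674 bp upstream of the annotated start, and those of RB1 siRNA and EV(245-255) are marked in the promoter printed above. EV(RBN) had a further summit inside the gene, at 27199317.

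HOXC4, HOXC5 and HOXC6 share an annotated lower end at 54016888, and one summit counted for all of them in 4 libraries. It had 11 fragments with HA-RB(245-255) and 10 with EV(245-255), and 36 with HA-RBN and 8 with EV(RBN), 1040 to 1486 bp downstream of the shared start. With control siRNA HOXC4 and HOXC5 had 10 fragments at 54035721, and HOXC6 had 3 at another place. With RB1 siRNA the interval of the HOXC13 summit covered HOXC5 and HOXC6 and, of HOXC4, all but its upper part. HOXB3 had 4 fragments with HA-RB(245-255) and 6 with EV(245-255), and 6 with HA-RBN and 5 with EV(RBN). HOXB6 had 4 and 3 fragments with HA-RB(245-255) and EV(245-255), and 8 and 4 with HA-RBN and EV(RBN). The summits of these last genes were low in each library that listed them.

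With HA-RBN 9 of the 39 HOX genes had a summit with the authors' −log10 q of at least 5, where 38.2% of all genes did. They were HOXA3, HOXA4, HOXA10, HOXB9, HOXC4, HOXC5, HOXC6, HOXC10 and HOXC13. With EV(RBN) HOXC13 alone did, at 8.34, where 11.1% of all genes did, and it had 18.4 with HA-RBN. No HOX gene did in the other 4 libraries, where few genes did at all: 0.309% with RB1 siRNA and 0.559% with control siRNA, and 0.664% with HA-RB(245-255) and 0.459% with EV(245-255). In those 4 libraries the highest −log10 q at the tallest summit of a HOX gene was 0.264, at HOXC13 with EV(245-255).

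Anterior and posterior members both held summits in every library. Of the 23 genes numbered 1 to 8 and the 16 numbered 9 to 13, 3 and 4 had a summit with RB1 siRNA, and 3 and 2 with control siRNA. The counts were 8 and 4 with HA-RB(245-255) and 7 and 8 with EV(245-255), and 18 and 12 with HA-RBN and 14 and 9 with EV(RBN). Genes numbered 1 to 8 include overlapping ones, such as HOXC4, HOXC5 and HOXC6, where 1 summit can count for several. The counts are thus not of separate summits, and the number groups were not set against genes of like length.

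**Figure D3:**
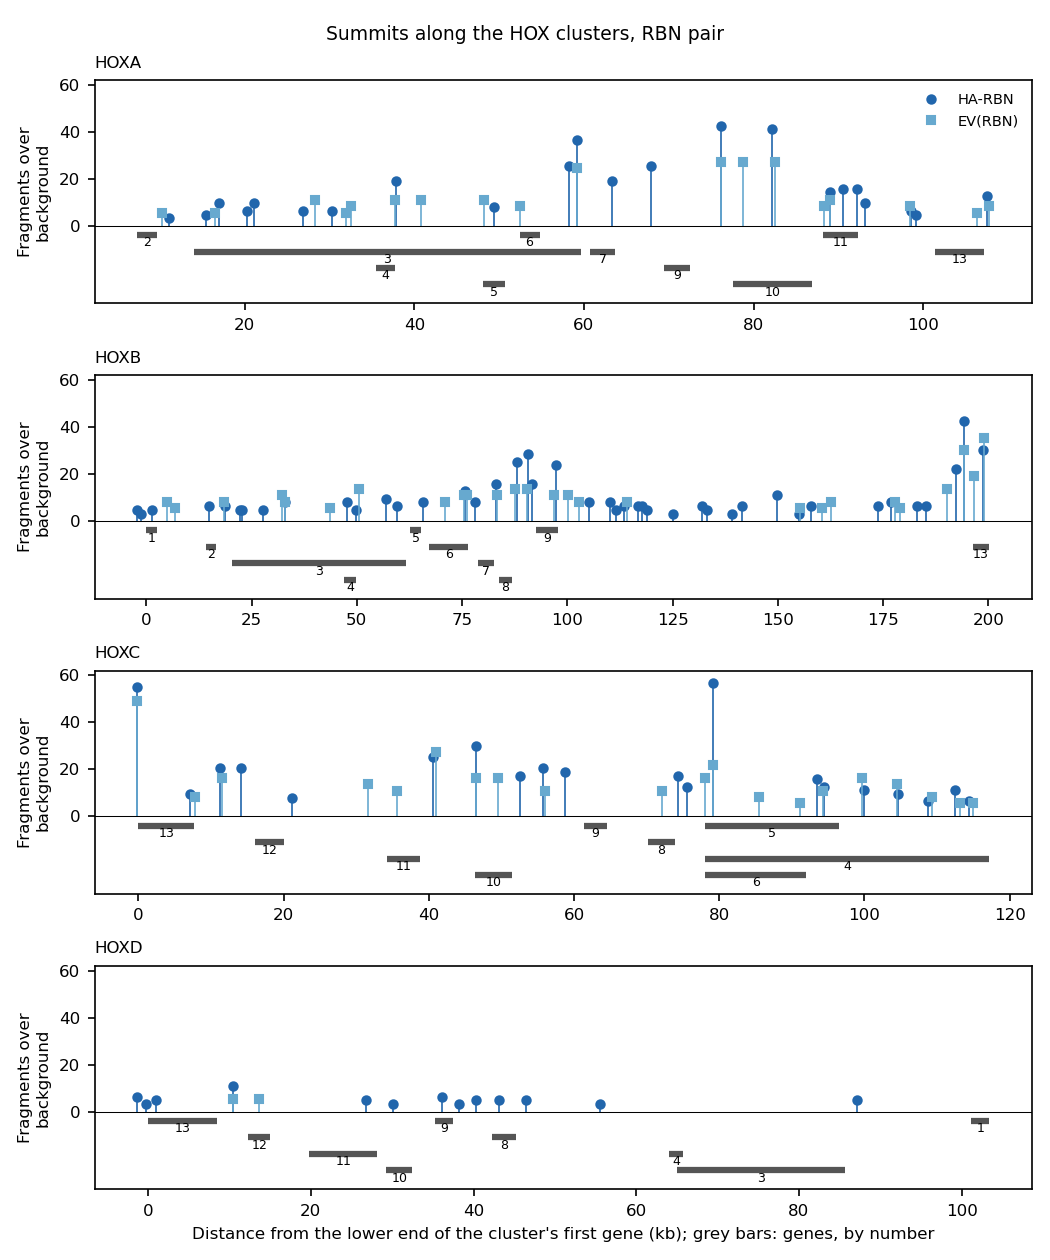
Summits of HA-RBN and EV(RBN) along the 4 HOX clusters. The horizontal axis is the distance in kb from the lower end of the first gene, the vertical axis fragments over library background, and grey bars are the genes by number, without one HOXA gene and the summits nearest to it. Sites between genes are drawn too. The tallest HOXC summits stand at HOXC13 and at the shared end of HOXC4, HOXC5 and HOXC6, and HOXD has none of like height.

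Between conditions, the siRNA pair shared few HOX summits. With RB1 siRNA only, 5 HOX genes (12.8%) had a summit, HOXA3, HOXA4, HOXA5, HOXA13 and HOXC13, where 18.2% of all genes did. With control siRNA only, 3 did (7.69%), HOXC4, HOXC5 and HOXC6, where 9.32% of all genes did. All 8 lay wholly or in part in an interval of the other library, so the lists do not show that a signal was missing there. Shares this near those of all genes are no result about the HOX genes. HOXA10 and HOXB9 had summits in both libraries. The log2 ratio of fragments, RB1 siRNA over control siRNA and relative to the median of all 6237 shared summits, was 0.43 at HOXA10 (95% interval −0.24 to 1.13) and −0.56 at HOXB9 (−1.57 to 0.43).

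In the 245-255 pair 2 HOX genes (5.13%) had a summit with HA-RB(245-255) only, where 11.3% of all genes did. One of them was HOXD9, with 3 fragments. With EV(245-255) only there were 5 (12.8%), HOXA11, HOXA13, HOXB13, HOXC9 and HOXC11, where 11.1% of all genes did. Their summits had 4 to 6 fragments, and 4 of the 5 lay in an HA-RB(245-255) interval. Of the 10 genes listed in both, HOXC13 had 39 fragments with HA-RB(245-255) and 43 with EV(245-255), a log2 ratio of −0.14 (−0.80 to 0.52) relative to 13759 shared summits. The summit shared by HOXA3 and HOXA4 had 5 and 7 fragments, a log2 ratio of −0.49 (−2.48 to 1.39).

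In the RBN pair 11 HOX genes (28.2%) had a summit with HA-RBN only, where 8.85% of all genes did. Among them were HOXA7, HOXB1, HOXB2, HOXB5, HOXC12, HOXD8, HOXD9, HOXD10, HOXD11 and HOXD13. Most of these summits were small, from 2 fragments at HOXD10 to 12 at HOXA7. With EV(RBN) only there were 4 (10.3%), HOXA2, HOXA6, HOXC11 and HOXD12, with 2 to 4 fragments, where 2.28% of all genes did. Both HOX shares exceeded the share of all genes. Of all genes 91.8% had a summit with HA-RBN and 85.2% with EV(RBN), which leaves few to be listed in one library only. Of HOX genes, whose median length was 3785 bp, against 24130 bp, 76.9% and 59.0% had one. The excess is therefore no result about the HOX genes or HA-RBN, and the part of gene length was not tested. The HA-RBN list was the longer one, with 252425 peaks, against 161012 in EV(RBN). With lists cut to equal length 12 HOX genes had a summit with HA-RBN and 10 with EV(RBN). The share of all genes in the cut lists is not given, so these counts cannot be set against other genes.

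Of the 11 HOX summits shared by HA-RBN and EV(RBN), 8 were above and 2 below the median of all 28846 shared summits. The summit of HOXC4, HOXC5 and HOXC6 differed most, with 36 fragments with HA-RBN and 8 with EV(RBN), a log2 ratio of 1.43 (0.30 to 2.75). It was the only one of the 11 whose interval left out 0, and 19.8% of all shared summits lay more than 1 log2 unit from the median. HOXC10, a posterior member of limb and spinal cord patterning, had 19 and 6 fragments with HA-RBN and EV(RBN), at 0.93 (−0.45 to 2.54). HOXC13 had 35 and 18, at 0.22 (−0.64 to 1.13), and HOXB13 19 and 13, at −0.19 (−1.28 to 0.95). The median of the 11 was 0.43, and that of the 7 with at least 10 fragments in one library of the pair was 0.62. All 9692 shared summits that tall had the same median, 0.62, so against summits of like height the HOX median was 0.00. Against them the HOXC4, HOXC5 and HOXC6 summit was at 0.82, with an interval of −0.31 to 2.13 that took in 0.

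**Figure D4:**
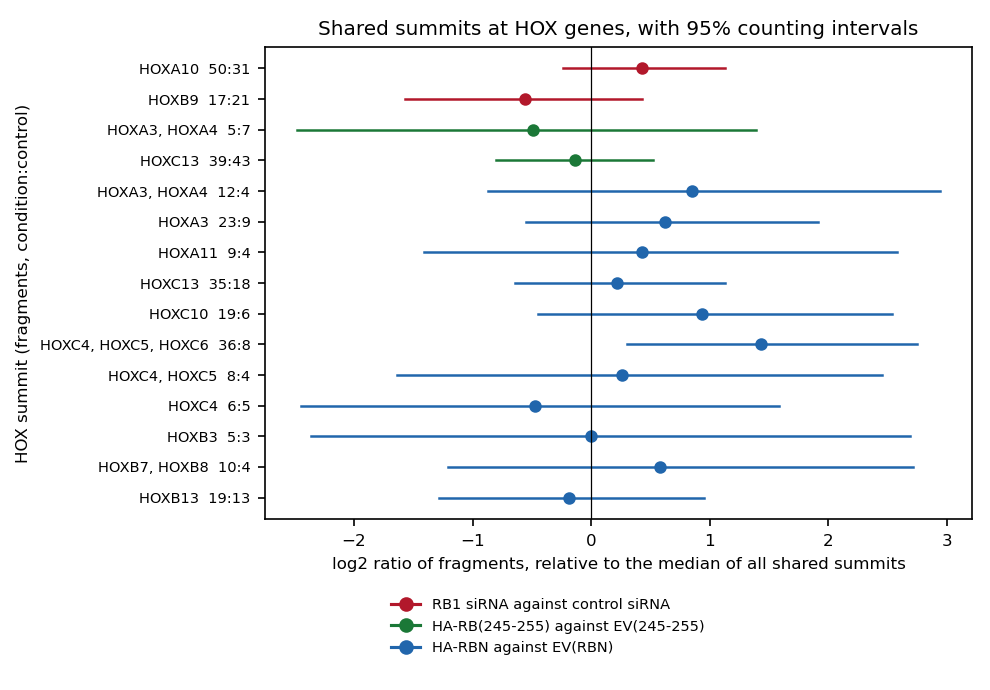
The log2 ratio of fragments, condition over control, at each HOX summit listed in both libraries of a pair, relative to the median of all shared summits. Bars are exact 95% counting intervals, and the fragments of condition and control stand beside the gene names. The interval of the HOXC4, HOXC5 and HOXC6 summit, 0.30 to 2.75, is the only one clear of 0 on this scale.

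The local background gave a further view of the RBN pair. Without an IgG partner, MACS2 takes it from the surrounding reads of the library itself, so it follows how many fragments lie around a summit, the summit's own included. With HA-RBN the median over HOX summits was 2.27 times the library background in HOXA, 1.59 in HOXB, 3.85 in HOXC and 1.06 in HOXD, where it was 1.01 over all gene windows. With EV(RBN) it was 1.61, 2.52, 2.92 and 1.35 in the same order, where it was 1.31 over all gene windows. By these medians the HOXA, HOXB and HOXC summits stood in stretches with more fragments than is common over all gene windows. Windows of 1 kb around gene ends make up 145 of 329 kb of HOX windows, and 72800 of 1290000 kb of all gene windows. No local background was taken at gene ends alone, so the part of gene ends in this difference was not tested. The 7 HOXD summits with HA-RBN, of at most 4 fragments, did not, and the HOXD value with EV(RBN) rests on 1 summit of 2 fragments. Since a summit's own fragments are included, these values are not separate from summit height. At the tallest summit of a gene the local background reached 9.22 at HOXA7, 8.94 at HOXA3 and 8.82 at HOXB13 with HA-RBN, and 6.83 at HOXB13 and 6.04 at HOXA10 with EV(RBN).

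**Figure D5:**
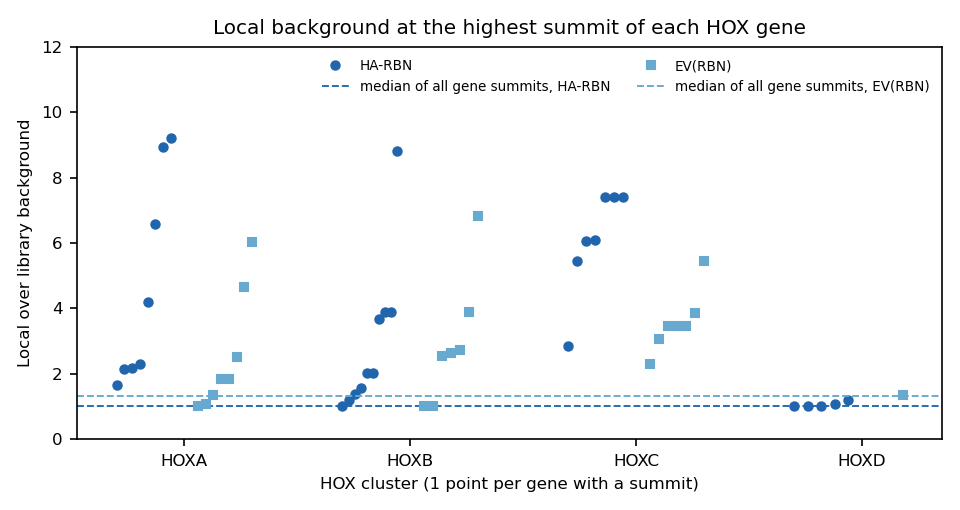
Local background at the tallest summit of each HOX gene over the library background, by cluster, with HA-RBN left of EV(RBN). Each point is a gene. Dashed lines are the medians over every summit in all gene windows, 1.01 with HA-RBN and 1.31 with EV(RBN). The lines are not medians of the tallest summit of each gene, so points and lines are unlike measures. The HOXD points lie at or near the dashed lines, and points of the other clusters reach 9.22.

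Genes for HOX cofactors and HOX regulators had shares with a summit above those of the HOX genes in each library, and some of these shares were near those of all genes, such as 72.7% of the cofactors with HA-RB(245-255), against 71.3% of all genes. The counts below stand beside these shares of all genes: 51.2% with RB1 siRNA and 42.3% with control siRNA. They were 71.3% with HA-RB(245-255) and 71.0% with EV(245-255), and 91.8% with HA-RBN and 85.2% with EV(RBN). Of 11 genes for TALE cofactors, 8 had a summit with RB1 siRNA and 7 with control siRNA, 8 with HA-RB(245-255) and 10 with EV(245-255), and 11 with HA-RBN and 9 with EV(RBN). PKNOX1, a TALE cofactor, had 178 fragments with RB1 siRNA and 164 with control siRNA, 57 with HA-RB(245-255) and 56 with EV(245-255), and 43 with HA-RBN and 12 with EV(RBN). PBX3 had 167 with RB1 siRNA and 165 with control siRNA, 6 with HA-RB(245-255), at another position, and 37 with EV(245-255), and 67 with HA-RBN and 21 with EV(RBN). Both genes were named for the height of their summits, and some other cofactor genes had low ones. PKNOX2 reached at most 8 fragments, with RB1 siRNA, and PBX2 had 1 summit, of 4 fragments with HA-RBN. Of 16 genes for trithorax and polycomb regulators, 11 had a summit with RB1 siRNA and 8 with control siRNA, 14 in each library of the 245-255 pair, and 16 with HA-RBN and 15 with EV(RBN). Of 8 ParaHox and neighbouring homeobox genes, 3 had one with RB1 siRNA and 2 with control siRNA, 5 with HA-RB(245-255) and 4 with EV(245-255), and 7 with HA-RBN and 5 with EV(RBN). At least 10 fragments were reached by 1 of these 8 genes with RB1 siRNA, control siRNA and EV(245-255) and by 0 in the other libraries. Of all genes 16.5% to 49.2% reached it, depending on the library. Of 26 other homeobox and developmental genes, 13 had one with RB1 siRNA and 12 with control siRNA, 18 with HA-RB(245-255) and 19 with EV(245-255), and 24 with HA-RBN and 20 with EV(RBN).

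Genes of the prostate lineage were listed too. Of 11 such genes, 9 had a summit with RB1 siRNA and 6 with control siRNA, 10 in each library of the 245-255 pair, and 11 in each library of the RBN pair. Of all genes, 51.2% had one with RB1 siRNA and 42.3% with control siRNA. The shares of all genes were 71.3% with HA-RB(245-255) and 71.0% with EV(245-255), and 91.8% with HA-RBN and 85.2% with EV(RBN). FOLH1, which encodes prostate-specific membrane antigen and was chosen after its values were seen, had 13 fragments with RB1 siRNA and 18 with control siRNA, 15 with HA-RB(245-255) and 21 with EV(245-255), and 11 with HA-RBN and 5 with EV(RBN). HOXB13, of the same lineage, was listed in 3 of the 6 libraries. Gene length differs among these lists, and no test of them was made.

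Summits at the genes flanking the clusters were taken as well. SKAP2, an adaptor gene beside HOXA, had 93 fragments with RB1 siRNA and 68 with control siRNA, 56 with HA-RB(245-255) and 41 with EV(245-255), and 82 with HA-RBN and 15 with EV(RBN). In each library the tallest HOX summit other than that of HOXC13 was lower than this. These SKAP2 summits lay at chr7:26864123-26864632, far below the lower end of HOXA at 27092993, so they are not close to HOX summits. EVX2, the homeobox gene beside HOXD13, had 6 fragments with HA-RB(245-255) and 13 with EV(245-255), and 5 with HA-RBN and 4 with EV(RBN). EVX1, its relative beside HOXA13, had 8 with RB1 siRNA, 7 with control siRNA and 5 with HA-RBN. Of the 8 flanking genes on the list, 6 had a summit with RB1 siRNA and 4 with control siRNA, 6 in each library of the 245-255 pair, and 8 with HA-RBN and 7 with EV(RBN). Several of these shares were near those of all genes, such as 75.0% with EV(245-255), against 71.0%, and 87.5% with EV(RBN), against 85.2%.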

How the data were processed

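Peak lists of 6 ChIP-seq libraries from 22RV1 cells, 1 per group, were used. No list of the 4 IgG libraries was used here. The tools named in the submitters' processing notes are MACS2 2.1.0, Bowtie 1.1.2, Trimmomatic 0.33 and bcl2fastq 2.17, with build hg38. Their settings were not stated there. The labels do not give read numbers, so depth is known only through the recovered fragments. The deposited lists, which lack a header, follow narrowPeak without its name column. For each peak, called per library, they give the authors' score, fold enrichment (a ratio to the local background) and the −log10 of p-value and q-value. The values in the lists are the authors' own.

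Fragments under each summit were recovered from fold enrichment and p-value through the caller's Poisson formula, taking the lowest solution, and 88.3% to 99.4% of peaks had a single one. The recovery was tested on simulated lists. Gene positions came from RefSeq (GRCh38.p14, the same build as hg38), and only peaks on the 22 autosomes, X and Y entered. Windows were the gene and 1 kb on each side. Summits within 250 bp were taken as shared. Intervals are 95%, Clopper-Pearson for shares, exact Poisson for densities and exact conditional binomial for ratios. Python 3.11.15, numpy 2.4.6, pandas 2.3.3, scipy 1.17.1 and matplotlib 3.10.9 were used.

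HOXB13, genes with a summit in 4 or more libraries, the tallest gene of each cluster and library, and flanking genes were named, and others were named where counts of 5 or fewer or their values were singled out. The members and lists were chosen with earlier results of these data known. Values of one HOXA gene and one prostate gene are not reported here singly, though both stay in the counts. Other windows, thresholds, list lengths, overlap rules and scalings were tried.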

Additional observations from a re-analysis of the deposited data

How the results depend on the processing

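No paired analysis was possible because each group has 1 library, so no replicate could be left out either. Of the counts of HOX genes with a summit, 31 of 60 alternative values stayed within 1.5 times the main one and 29 did not. Without the 1 kb margin RB1 siRNA had 4 genes, and with 5 kb RB1 siRNA had 11 and HA-RB(245-255) 21. At a −log10 q of at least 5 there were 9 genes with HA-RBN, 1 with EV(RBN) and 0 in the other 4 libraries. With at least 10 fragments there were 5 with HA-RB(245-255), 6 with EV(245-255), 16 with HA-RBN and 3 with EV(RBN). With at least 20 there were 2 with RB1 siRNA, 2 with control siRNA, 2 with HA-RB(245-255), 1 with EV(245-255), 6 with HA-RBN and 0 with EV(RBN). In lists of equal length there were 7 with HA-RB(245-255), 8 with EV(245-255), 12 with HA-RBN and 10 with EV(RBN). Shares of all genes are not given for the other windows, for at least 20 fragments or for lists of equal length. Those counts therefore show the spread between settings only. Any interval overlap gave 38 with RB1 siRNA, 38 with control siRNA, 37 with HA-RB(245-255) and 38 with EV(245-255), because those intervals cover nearly all of the chromosomes. Gene ends alone, chosen after seeing the data, gave 2 with control siRNA and 5 with HA-RB(245-255). Of the summits per cluster summed over the libraries (48 in HOXA, 37 in HOXB, 44 in HOXC and 9 in HOXD), 22 of 36 alternative values moved by more than 1.5 times. HOXA, HOXB, HOXC and HOXD had 3, 1, 4 and 0 at the q threshold, 17, 6, 12 and 0 with at least 10 fragments, 5, 1, 5 and 0 with at least 20, and 19, 10, 11 and 0 in lists of equal length. A window of 2 kb gave 17 in HOXD, and one of 5 kb 56 in HOXB and 18 in HOXD. Any overlap gave 56 in HOXB, 72 in HOXC and 40 in HOXD. HOXD had the lowest summed count of the 4 clusters under each of these settings. Of the pair medians, 15 of 18 alternative values moved by less than the counting error of the summed fragments. The median log2 ratio of RB1 siRNA over control siRNA was 4.12 with the highest fragment solution, because the other solution is far larger at a shared summit. That of HA-RBN over EV(RBN) was 0.00 with at least 10 fragments and −0.16 with at least 20, each relative to the median of all shared summits that tall. Relative to all shared summits, a value added after seeing the data, both were 0.62, so it is the comparison set that moved these values. Where no cause is given above, the cause was not tested. Low stacks, single libraries and interval width limit every count. A gene without a summit in a wide interval is capped and not shown to be empty.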
